A study of Mus musculus with 20 samples.

Results

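The genes of the mitochondrial ribosomal proteins were followed across progenitor cells of mouse bone marrow that carried floxed Rptor alleles or were wild type. Members were all genes with a platform symbol beginning with Mrpl or Mrps and a digit, each measured by its single-gene probe set of highest mean over the 20 arrays, which gave 71 genes of the 22180 with such a probe set. All 71 lay above the filter on dim genes and were tested. By subunit, 45 belong to the large ribosomal subunit (28 with a bacterial counterpart and 17 specific to mitochondria, Mrps30 and Mrps18a among them), 25 to the small subunit (15 and 10), and 1, Mrps36, is now assigned to the α-ketoglutarate dehydrogenase complex despite its name. A further 7 genes (Mrpl30, Mrpl33, Mrpl41, Mrpl43, Mrpl44, Mrpl53 and Mrps6) were measured only by probe sets shared with another gene and were left out.

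Mitochondria keep their own ribosome, which translates the few respiratory chain proteins encoded in mitochondrial DNA. Its RNAs come from that DNA, whereas its proteins are encoded in the nucleus, translated in the cytosol and imported. Some of these proteins are counterparts of bacterial ribosomal proteins and others have been added in the mitochondrial lineage. The kinase complex mTORC1, for which Rptor encodes the scaffold Raptor, is known to promote translation of several nuclear-encoded mitochondrial mRNAs, mitochondrial ribosomal proteins among them, a step that an array of mRNA levels does not measure.

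Each of 3 populations was compared between CreER-Rptor-flox/flox mice, called Rptor here, and wild-type (WT) mice, all of them female, with C57BL/6 as background strain. The common myeloid progenitor (CMP), which can form granulocytes, monocytes, red cells and platelets, and the granulocyte-macrophage progenitor (GMP), its descendant committed to granulocytes and monocytes, were lysed directly after sorting, with 3 arrays per genotype each. Lineage-negative (Lin-) marrow cells, which lack the surface markers of mature blood cells, had been cultured for 12 h with the growth factor M-CSF at 10 ng/ml, with 4 arrays per genotype. CreER is a Cre recombinase that acts only when its ligand is given, and the labels do not state whether or when that was done, which promoter drove it, whether WT mice carried it, or the age of the mice. The labels also do not say whether replicates came from different mice, so the p-values cover the spread among these samples alone, and that spread may be technical.

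Values are log2 signals, and the number of arrays limits their precision. Arrays of a group correlated at 0.978 to 0.993, and the residual spread of an array was 0.109 to 0.168 in CMPs and GMPs and 0.171 to 0.236 in the Lin- + M-CSF cells. The Rptor probe set differed, Rptor minus WT, by -0.29 in CMPs, -0.17 in GMPs and -0.18 under M-CSF, which did not pass the limma test (adjusted p = 0.163, 0.465 and 0.305), and -0.22 ± 0.07 (SE) over the 3 populations, which did (adjusted p = 0.0269). Where its probes lie relative to the floxed part was not used, so it checks no label. A list of 10 myeloid progenitor genes had array means of 9.76 to 10.7, lowest in Rptor CMPs and highest in WT GMPs. Within it Mpo and Kit averaged at least 12.1 and 8.94 in every group, while group means ran from 8.89 to 10.6 for Cd34 and from 7.28 to 9.91 for Csf1r. A list of 10 mature neutrophil genes read higher on the Lin- + M-CSF arrays, with array means of 9.79 to 11.6 against 7.25 to 9.18 in CMPs and GMPs. A list of 9 genes of B, T and NK cells read higher on the Lin- + M-CSF arrays, with array means of 6.43 to 6.63 in Rptor and 6.04 to 6.34 in WT cells, against 4.47 to 4.71 in CMPs and GMPs.

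Promoter sequence is shown for the 3 members that passed the genotype test in the same direction in 2 populations, Mrpl52, Mrpl58 and Mrpl42. Each window runs from 250 bases before to 50 bases after the gene's start, on the gene's strand, 5′ to 3′, from RefSeq on GRCm38.p6. Capitals mark a match to any of 4 motifs searched on both strands, which were CCGGAAGT of the ETS family and GABPA, CGCATGCGC of NRF1, AAGATGGCG of YY1 and the E-box CACGTG, bound by MYC and MiT/TFE factors. The NRF1 and YY1 letters were shortened after longer forms of both had been searched, with which fewer member windows matched and that of Mrpl42 held no match. The Mrpl52 window lies at chr14:54426659-54426958 on the plus strand, that of Mrpl58 at chr11:115403502-115403801 on the plus strand and that of Mrpl42 at chr10:95501900-95502199 on the minus strand.
Mrpl52: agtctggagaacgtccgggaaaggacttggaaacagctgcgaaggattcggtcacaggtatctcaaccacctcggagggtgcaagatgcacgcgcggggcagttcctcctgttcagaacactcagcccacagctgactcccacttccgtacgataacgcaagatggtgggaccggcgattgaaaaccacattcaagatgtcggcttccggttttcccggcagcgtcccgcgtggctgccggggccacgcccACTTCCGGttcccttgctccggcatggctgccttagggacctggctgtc
Mrpl58: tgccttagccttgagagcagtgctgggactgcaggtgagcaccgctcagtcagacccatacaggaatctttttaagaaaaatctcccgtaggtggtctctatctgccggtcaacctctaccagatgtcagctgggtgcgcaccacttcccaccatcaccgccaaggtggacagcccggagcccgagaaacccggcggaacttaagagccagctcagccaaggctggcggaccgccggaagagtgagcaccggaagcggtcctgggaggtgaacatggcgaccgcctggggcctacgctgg
Mrpl42: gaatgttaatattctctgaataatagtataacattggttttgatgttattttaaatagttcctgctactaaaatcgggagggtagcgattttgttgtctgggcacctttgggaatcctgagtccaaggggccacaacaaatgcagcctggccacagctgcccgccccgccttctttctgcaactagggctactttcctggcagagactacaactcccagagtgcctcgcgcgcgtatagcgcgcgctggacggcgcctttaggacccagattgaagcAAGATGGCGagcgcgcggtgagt
The Mrpl52 window held 1 match, the ETS motif read on the other strand (ACTTCCGG). The Mrpl42 window held 1 match, the YY1 motif read on the printed strand, and the letters searched were not in the Mrpl58 window.

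In all, 62 of the 71 members matched an entry of the promoter table, with 68 windows. The ETS motif was in 10 of the 68 (14.7%), against 3.89% of all 32851 windows of the same length. The YY1 motif was in 8 (11.8%, against 1.4%), the NRF1 motif in 7 (10.3%, against 1.75%) and the E-box in 7 (10.3%, against 7.15%). At least 1 of the 4 motifs was in 28 member windows (41.2%), against 13.1% of all windows, and no matches of different motifs overlapped. These are matches of letters, not measured binding. The NRF1 and YY1 letters were shortened after these windows had been searched, so their shares do not test whether members carry these motifs more often. The windows of all genes were not matched to those of the members in base composition.

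As a family, the members had nearly the same mean signal in both genotypes. Their mean log2 signal was 7.97, 8.13 and 7.99 on the Rptor CMP arrays, against 8.01, 7.89 and 8.00 on the WT CMP arrays. In GMPs it was 7.90, 7.89 and 7.90 on the Rptor arrays, against 7.93, 7.97 and 7.94 on the WT arrays. In the Lin- + M-CSF cells it was 7.70, 7.74, 7.64 and 7.57 on the Rptor arrays, against 7.80, 7.76, 7.66 and 7.67 on the WT arrays. The 2 genotypes overlapped in CMPs and Lin- + M-CSF cells, while in GMPs the 3 Rptor arrays lay just below the 3 WT arrays. The means ± SD were 8.03 ± 0.09 in Rptor and 7.96 ± 0.07 in WT CMPs (n = 3 each), 7.90 ± 0.01 in Rptor and 7.94 ± 0.02 in WT GMPs (n = 3 each), and 7.66 ± 0.07 in Rptor and 7.72 ± 0.07 in WT Lin- + M-CSF cells (n = 4 each).

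**Figure D1:**
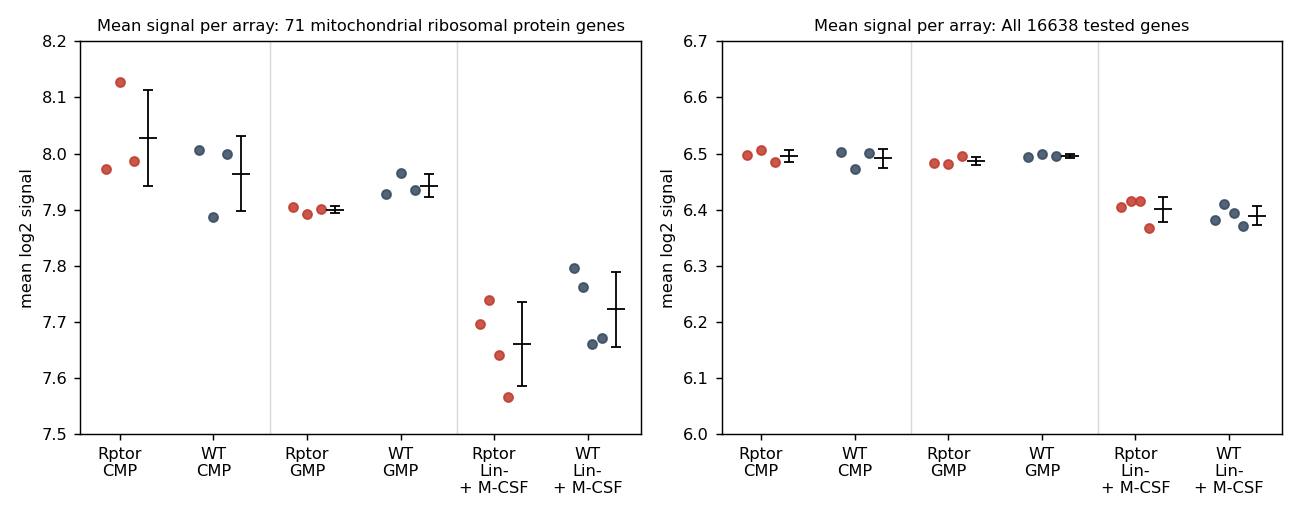
Mean log2 signal of the 71 members (left) and of all 16638 tested genes (right) on each of the 20 arrays, by population, with Rptor arrays left of WT arrays (points, 1 array each; bars, group mean ± SD). For the members, the genotypes overlap in CMPs and in the Lin- + M-CSF cells, and the Lin- + M-CSF arrays (7.57 to 7.80) lie below all others (7.89 to 8.13). Over all tested genes the Lin- + M-CSF arrays (6.37 to 6.42) also lie below all others (6.47 to 6.51).

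Few members passed the genotype test in any population. With limma fitted over all 20 arrays and 16638 genes, and Benjamini-Hochberg adjusted p under 0.05, 3 of 71 members (4.23%) passed in CMPs, against 11.4% of all tested genes. In GMPs 6 passed (8.45%, against 11.9%) and in the Lin- + M-CSF cells 6 passed (8.45%, against 12.5%). In CMPs 2 members rose and 1 fell, beside 6.01% and 5.44% of all genes, in GMPs 2 rose and 4 fell, beside 4.37% and 7.53%, and under M-CSF 2 rose and 4 fell, beside 6.82% and 5.73%. Genes of similar brightness, the 3051 within the middle range of the members' mean signal, passed in 15.5%, 17.6% and 15.3%. The median difference of the members, Rptor minus WT, was 0.05 in CMPs, -0.06 in GMPs and -0.09 in the Lin- + M-CSF cells, beside -0.01, 0.02 and 0.01 over all tested genes. Without Rptor CMP replicate 2 the CMP median was -0.01, and without WT CMP replicate 2 it was 0.00. The CMP count was 1 without replicate 1 or 3 of either genotype, where 8.08% to 10.6% of all genes passed. The GMP count was 2 without replicate 2 of either genotype (7.11% and 7.55% of all genes) and 3 without WT replicate 1 (8.02%). With array weights the GMP count was 20, and 32% of all genes passed. In bulk samples such as these, fewer cells of a type and less RNA per cell cannot be told apart.

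Most differences between the genotypes were small. In CMPs 53 of 71 members differed by less than 0.2 log2 units, in GMPs 51 and in the Lin- + M-CSF cells 47. The 95% interval of the difference lay wholly within 0.5 log2 units of 0, which is 1.41-fold either way, for 58 members in CMPs, 52 in GMPs and 57 in the Lin- + M-CSF cells, and for 70 of 71 when the genotype difference was averaged over the 3 populations. Over all members the differences ran from -0.32 to 0.94 in CMPs, from -0.46 to 0.41 in GMPs and from -0.67 to 0.51 in the Lin- + M-CSF cells. Rptor and WT arrays were fully apart for 14 members higher and 3 lower in Rptor CMPs (23.9%, against 30.8% of all genes), 10 higher and 10 lower in GMPs (28.2%, against 32.4%), and 2 higher and 6 lower in the Lin- + M-CSF cells (11.3%, against 13.9%). Across populations, 59 members passed in no genotype comparison, 9 in 1 and 3 in more than 1, and 0 passed in opposite directions.

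**Figure D2:**
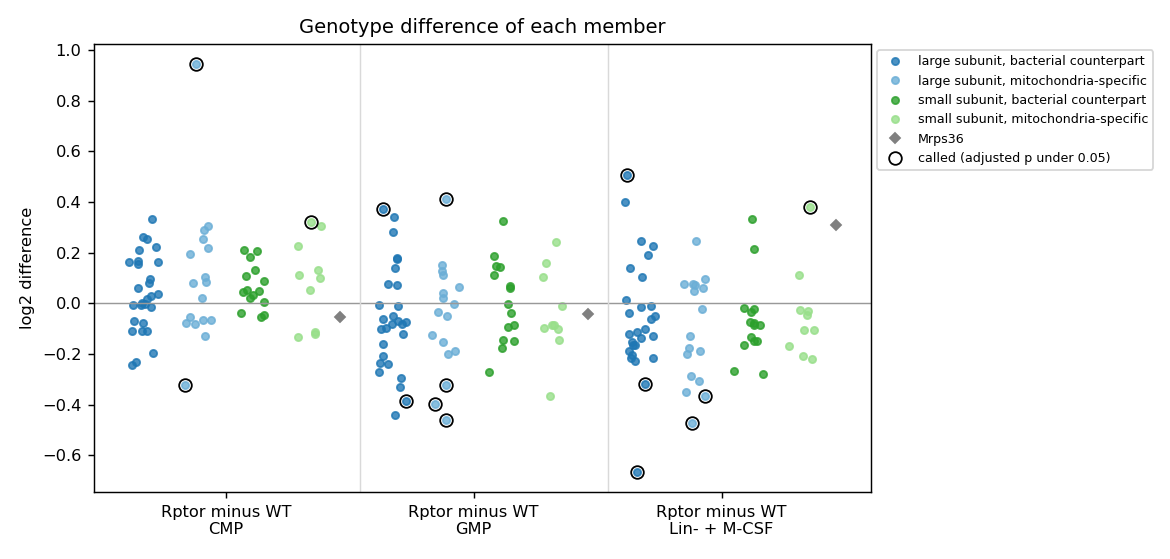
Genotype difference of every member, Rptor minus WT in log2 units, in the 3 populations, by subunit and class (points, 1 gene each; black rings, limma adjusted p under 0.05). Most points lie within 0.2 of 0, and the highest is Mrpl52 in CMPs at 0.94.

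Mrpl52, a protein of the large subunit with no bacterial counterpart, had the largest genotype difference of any member. It read 9.28, 9.60 and 9.28 on the Rptor CMP arrays, against 8.57, 8.28 and 8.48 on the WT CMP arrays. In GMPs it read 8.10, 8.12 and 8.28 in Rptor cells, against 7.64, 7.81 and 7.82 in WT cells. In the Lin- + M-CSF cells it read 9.46, 9.53, 9.64 and 9.42 in Rptor cells, against 9.44, 9.47, 9.36 and 9.39 in WT cells. Every Rptor array thus lay above every WT array in CMPs and in GMPs, and the genotypes overlapped under M-CSF. Mrpl52 rose by 0.94 ± 0.11 (SE) in Rptor CMPs, 1.92-fold (limma adjusted p = 3.13e-06), and by 0.41 ± 0.11 in Rptor GMPs (0.0147), and differed by 0.10 ± 0.09 in the Lin- + M-CSF cells (0.577). The GMP call was lost without WT GMP replicate 1 (0.35, adjusted p = 0.0847) or Rptor GMP replicate 3 (0.35, 0.0585), and the CMP call held without any single array.

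Mrpl58, a large-subunit protein derived from a peptidyl-tRNA hydrolase that in human cells also frees stalled ribosomes, fell in 2 populations. It read 7.51, 7.66 and 7.51 on the Rptor CMP arrays, against 7.95, 7.82 and 7.88 in WT, and 7.62, 7.52 and 7.58 on the Rptor GMP arrays, against 7.83, 7.92 and 7.94 in WT. In the Lin- + M-CSF cells it read 7.31, 7.30, 7.24 and 7.32 in Rptor cells, against 7.56, 7.54, 7.36 and 7.51 in WT cells. Rptor and WT arrays were fully apart in each of the 3 populations. The limma differences were -0.32 ± 0.09 in CMPs (adjusted p = 0.0184), -0.32 ± 0.09 in GMPs (0.0187) and -0.20 ± 0.08 in the Lin- + M-CSF cells (0.0967). The CMP call was lost without Rptor replicate 1 (adjusted p = 0.0748) or 3 (0.0658) or WT replicate 1 (0.0883) or 3 (0.0582), and the GMP call without Rptor replicate 2 (0.0823) or WT replicate 2 (0.0758) or 3 (0.0665). The CMP call was also lost with arrays centred on their median (0.0564) and when the 6 CMP arrays were fitted alone (0.0527), and the GMP call under repeated quantile normalization (0.0515).

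Mrpl42, another large-subunit protein without a bacterial counterpart, fell in GMPs and under M-CSF. It read 8.76, 8.48 and 8.79 on the Rptor GMP arrays, against 9.06, 9.33 and 9.03 in WT, and 9.41, 9.11, 8.91 and 9.11 on the Rptor Lin- + M-CSF arrays, against 9.81, 9.53, 9.59 and 9.51 in WT. In CMPs it read 9.31, 9.39 and 9.47 in Rptor cells, against 9.44, 9.47 and 9.50 in WT cells. Rptor and WT arrays were apart in GMPs and under M-CSF and overlapped in CMPs. The differences were -0.46 ± 0.13 in GMPs (limma adjusted p = 0.0181), -0.47 ± 0.11 under M-CSF (0.00593) and -0.08 ± 0.13 in CMPs (0.821). The GMP call was lost without Rptor replicate 2 (-0.37, adjusted p = 0.121) or WT replicate 2 (-0.37, 0.126), and the call under M-CSF when these 8 arrays were fitted alone (0.0528).

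**Figure D3:**
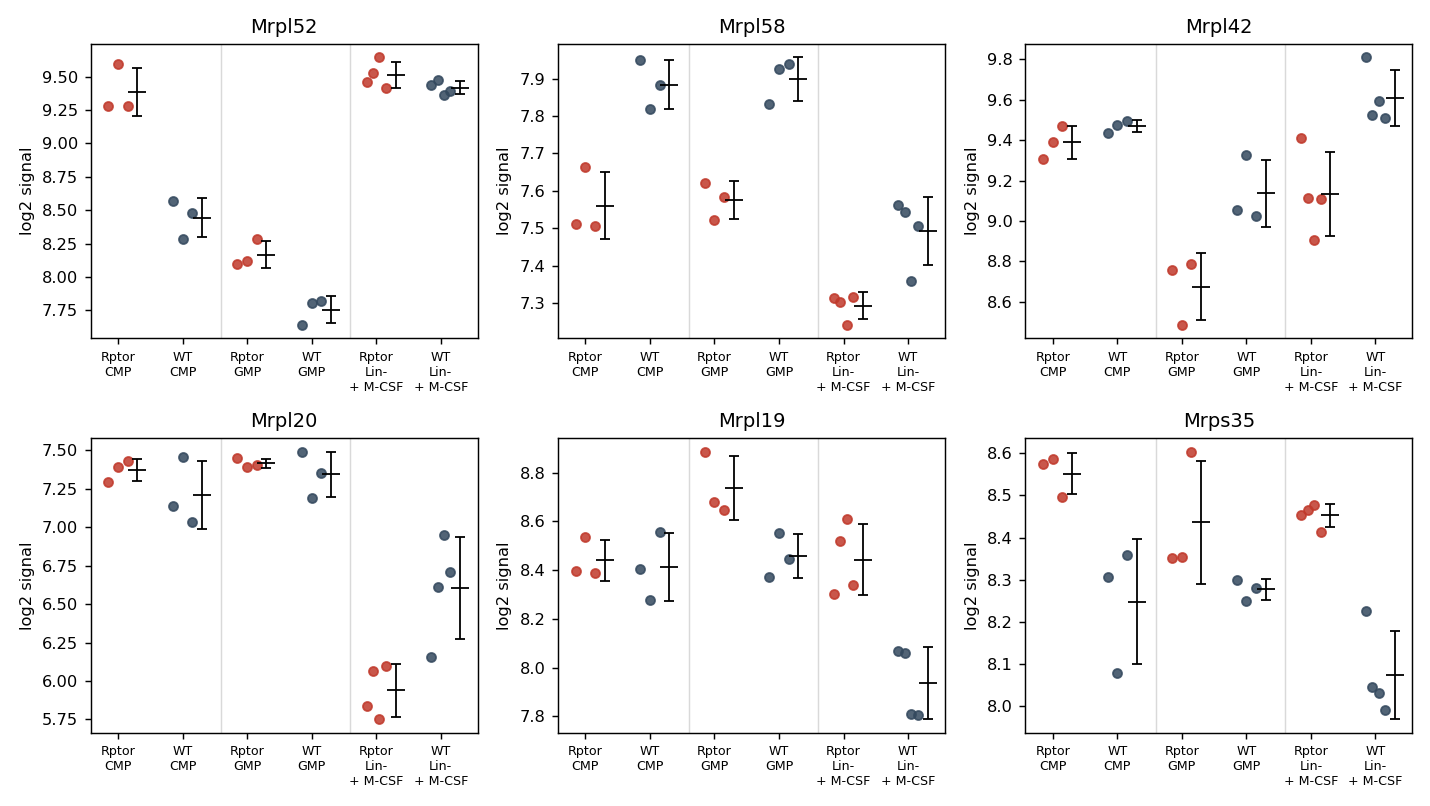
Log2 signal of Mrpl52, Mrpl58, Mrpl42, Mrpl20, Mrpl19 and Mrps35 on every array, by population, with Rptor arrays left of WT arrays (points, 1 array each; bars, group mean ± SD). Mrpl52 is higher on all Rptor arrays than on all WT arrays in CMPs and GMPs, and Mrpl20 is lower on all Rptor arrays in the Lin- + M-CSF cells.

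The large subunit, with 45 of the 71 members, held 13 of the 15 calls made in the 3 populations. These were 2, 6 and 5 calls in CMPs, in GMPs and under M-CSF. The small subunit held 1, 0 and 1 among its 25 members. Over all tested genes 11.4%, 11.9% and 12.5% passed. Whether the subunits differed in their share of calls was not tested. Among counterparts of bacterial proteins, Mrpl16 read 8.84, 8.85 and 8.68 on the Rptor GMP arrays, against 9.10, 9.15 and 9.27 in WT. It fell by 0.39 on the log2 scale (limma adjusted p = 0.00908), with the groups apart. Mrpl3, whose bacterial counterpart lies close to the peptidyl transferase centre, rose by 0.37 ± 0.12 in Rptor GMPs (0.0405), and Mrpl46, a mitochondria-specific protein, fell by 0.40 (0.0246). The Mrpl3 call was lost without any one of Rptor GMP replicates 1 and 2 and the 3 WT GMP arrays (adjusted p = 0.0563 to 0.168) or without CMP replicate 1 of either genotype (0.0503 and 0.0515), and with arrays centred on their median (0.0813). The Mrpl46 call was lost without Rptor GMP replicate 1 or 2 or WT GMP replicate 1 or 2 (0.0563 to 0.161).

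In the Lin- + M-CSF cells, Mrpl20, a counterpart of a bacterial protein of early large-subunit assembly, fell furthest. It read 5.83, 6.07, 5.75 and 6.10 on the Rptor arrays, against 6.16, 6.61, 6.95 and 6.71 on the WT arrays, where WT replicate 1 lay close to the Rptor arrays. Its difference was -0.67 ± 0.13 (limma adjusted p = 0.0021). Mrpl19, whose bacterial counterpart sits at the interface of the subunits, read 8.30, 8.52, 8.61 and 8.34 in Rptor cells, against 8.07, 8.06, 7.81 and 7.81 in WT cells. It rose by 0.51 ± 0.10 (0.00168), with the groups apart. Mrpl49 and Mrpl4 fell by 0.36 (0.0352) and 0.32 (0.0353) on the log2 scale, Mrpl4 being the counterpart of a bacterial protein that lines the peptide exit tunnel. Both calls were lost without any one of several arrays, namely WT replicate 1, 2 or 4 or Rptor replicate 2 or 4, with WT replicate 3 as well for Mrpl4 and Rptor replicate 3 for Mrpl49 (adjusted p = 0.0532 to 0.109). Both were also lost with array weights (0.102 for Mrpl4 and 0.115 for Mrpl49), with arrays centred on their median (0.0522 and 0.0559) and when these 8 arrays were fitted alone (0.0947 and 0.101).

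Of the small subunit, Mrps18b was called in CMPs and Mrps35 under M-CSF, the one a relative of bacterial S18 counted among the mitochondria-specific proteins and the other mitochondria-specific. Mrps18b read 9.46, 9.47 and 9.44 on the Rptor CMP arrays, against 9.20, 9.12 and 9.10 on the WT CMP arrays. It rose by 0.32 ± 0.10 (limma adjusted p = 0.0386), with the groups apart, and the other single-gene probe set of Mrps18b, of lower mean signal, differed by 0.46. Its call was lost without any one of the 6 CMP arrays (0.0624 to 0.132) and with the replicate number as a block (0.0545). Mrps35 read 8.45, 8.46, 8.48 and 8.41 on the Rptor Lin- + M-CSF arrays, against 8.23, 8.05, 8.03 and 7.99 on the WT arrays. It rose by 0.38 ± 0.09 (0.0054), the groups did not overlap, and the call held without any single array.

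Averaged over the 3 populations, 7 members rose and 7 fell (19.7%, against 23.2% of all genes, of which 11.6% rose and 11.6% fell), with a median of -0.02. The 6 of largest rise were Mrpl52 (0.48 ± 0.06, limma adjusted p = 3.26e-06), Mrps35 (0.28), Mrpl19 (0.27), Mrpl17 (0.24), Mrps30 (0.22) and Mrpl3 (0.20). The 6 of largest fall were Mrpl42 (-0.34), Mrpl58 (-0.28), Mrpl16 (-0.27), Mrpl18 (-0.25), Mrps25 (-0.23) and Mrpl46 (-0.22). The differences over these 12 genes ran from 0.791-fold to 1.40-fold. The Mrps30 call was lost without any one of 11 arrays (adjusted p = 0.0504 to 0.0952) and with arrays centred on their median (0.0588), and that of Mrpl3 without Rptor or WT CMP replicate 2, Rptor GMP replicate 1 or 2, or WT GMP replicate 2 (0.0512 to 0.0621).

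Some of the genes that act with the mitochondrial ribosome passed the test. Of all tested genes, 11.4% passed in CMPs (6.01% higher and 5.44% lower), 11.9% in GMPs (4.37% and 7.53%) and 12.5% under M-CSF (6.82% and 5.73%). Of 24 genes of ribosome assembly and rRNA modification, 2 rose in Rptor CMPs, the GTPase gene Noa1 (0.48) and Lrpprc (0.38), an RNA-binding protein of mitochondrial mRNAs, and 0 passed in GMPs or under M-CSF (3 and 1 at an unadjusted p under 0.05). Of 13 translation factors, Mtif3, an initiation factor, fell by 0.41 in GMPs and Mrrf, the recycling factor, rose by 0.42 under M-CSF. Of 19 mitochondrial aminoacyl-tRNA synthetases and partners, Iars2 rose in all 3 populations, by 0.57 ± 0.10 in CMPs (limma adjusted p = 0.000314), 0.33 ± 0.10 in GMPs (0.031) and 0.36 ± 0.09 under M-CSF (0.00789). Vars2 rose by 0.67 in CMPs, and under M-CSF Tars2 rose by 0.34 and Qrsl1 fell by 0.52. Dap3, Ptcd3 and Gadd45gip1, proteins of the mitochondrial ribosome outside the Mrpl and Mrps names, did not pass in any population.

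Of 10 genes for transcription and maintenance of mitochondrial DNA, Twnk, the replicative helicase, rose by 0.50 in Rptor CMPs, 0.44 in GMPs and 0.63 under M-CSF, and Tefm, a transcription elongation factor, rose by 0.54 in GMPs. Of 8 nuclear regulators of mitochondrial genes, the co-activators Ppargc1b (0.75) and Pprc1 (0.37) rose in CMPs, and Myc rose by 0.49 in GMPs and 0.61 under M-CSF. Nuclear-encoded subunits of the respiratory chain, which assemble with the products of the mitochondrial ribosome, held few calls. The shares over all tested genes were 11.4% in CMPs, 11.9% in GMPs and 12.5% under M-CSF. Of 32 complex I subunits 0 passed in CMPs (3 at an unadjusted p under 0.05), and 1 and 3 fell in GMPs and under M-CSF, with Ndufb7 among them in both (-0.36 and -0.31). Of 31 subunits of complexes III, IV and V, Cox5a fell by 0.33 in CMPs, Uqcrc2 rose by 0.27 in GMPs, and 3 fell under M-CSF, Uqcrq furthest (-0.63).

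Cytosolic ribosomal protein genes had positive medians in all 3 populations, 0.12, 0.09 and 0.16 over 58 genes, where the mitochondrial ones had 0.05, -0.06 and -0.09. Their calls were 3, 3 and 7 rises and 0, 0 and 4 falls, where 11.4%, 11.9% and 12.5% of all tested genes passed in either direction. Among them were rises of Rpl3 in CMPs (0.53) and GMPs (0.59) and of Rplp0 under M-CSF (0.87). Rpl34 (-0.68) and Rpl26 (-0.66) fell under M-CSF. The difference between the 2 families was not tested. Cell cycle genes had larger negative medians in the same cells. Of 19 genes of G2 and mitosis 1, 14 and 8 fell in Rptor cells of the 3 populations (medians -0.05, -0.63 and -0.34), and of 20 S phase genes 0, 5 and 4 fell, with 2 at an unadjusted p under 0.05 in CMPs.

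**Figure D4:**
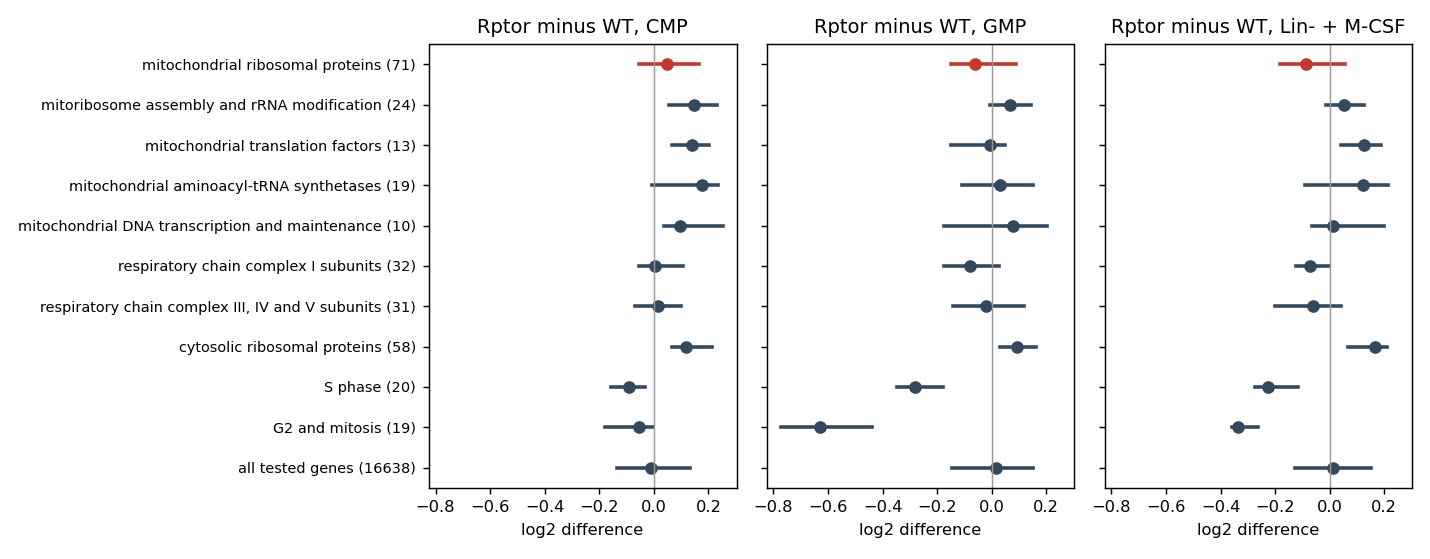
Median genotype difference, Rptor minus WT in log2 units, of the mitochondrial ribosomal proteins, of genes that act with them and of comparison lists, in each population (points, medians; lines, middle range from the 25th to the 75th percentile of the genes). The mitochondrial ribosomal proteins lie within 0.09 of 0 in all 3, and the genes of G2 and mitosis lie at -0.63 in GMPs.

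Some marker genes of other cell types also differed between the genotypes. Among all tested genes 6.01%, 4.37% and 6.82% were called higher in CMPs, in GMPs and under M-CSF, and 5.44%, 7.53% and 5.73% lower. Of 11 erythroid genes 9, 5 and 7 rose in Rptor CMPs, in GMPs and under M-CSF, with array means of 8.78 to 9.49 in Rptor and 7.76 to 7.94 in WT CMPs, 6.06 to 6.92 in Rptor and 5.43 to 5.60 in WT GMPs, and 6.25 to 6.85 in Rptor and 5.53 to 5.82 in WT Lin- + M-CSF cells. Of 10 mature neutrophil genes 7, 5 and 3 fell, and 2 rose in GMPs, and of 9 monocyte and macrophage genes 3, 4 and 7 fell and 1 rose in CMPs. Of 5 megakaryocyte genes 0, 1 and 3 rose, with 2 at an unadjusted p under 0.05 in CMPs. Of the 8 tested genes of the B, T and NK cell list 1, 0 and 2 rose and 1, 1 and 0 fell, and of 10 myeloid progenitor genes 1, 1 and 1 rose and 6, 2 and 1 fell. The part of these cell types, and of the cell cycle, in the members' differences was not tested.

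Whether the genotype difference of a member depended on the population was tested with interaction terms, which share arrays with the comparisons above. Between GMPs and CMPs 0 of 71 members passed in the limma fit (2 at an unadjusted p under 0.05, and 2.5% of all genes called), and 5 with array weights, where 11.9% of all genes passed. Between Lin- + M-CSF cells and CMPs 5 members passed, all with a lower genotype difference under M-CSF (7.04%, against 7.77% of all genes and 3.45% in that direction). These were Mrpl52 (-0.85 ± 0.14, adjusted p = 0.000517), Mrpl20 (-0.83 ± 0.21, 0.0128), Mrpl38 of the central protuberance (-0.61), Mrps28 (-0.49) and Mrpl47 (-0.48). Between Lin- + M-CSF cells and GMPs only Mrpl20 passed (-0.74 ± 0.21, 0.0407, 1.41% of members against 4.77% of all genes and 1.83% in that direction).

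In CMPs the genotypes overlapped for Mrpl20, which read 7.29, 7.39 and 7.43 on the Rptor arrays, against 7.14, 7.46 and 7.03 on the WT arrays. Its Rptor GMP arrays read 7.45, 7.39 and 7.41, against 7.49, 7.19 and 7.35 in WT GMPs. The genotypes overlapped in GMPs too. Against CMPs the calls of Mrpl52 and Mrpl20 held without any single array. That of Mrpl47, which falls outside the rule for named members and was named after its value was seen, was lost without any one of 6 arrays, namely CMP replicates 2 and 3 of each genotype, Rptor Lin- + M-CSF replicate 4 and WT Lin- + M-CSF replicate 1 (adjusted p = 0.0519 to 0.105). The count was 2 or 3 without any one of 14 arrays, where 5.61% to 8.2% of all genes passed. The calls of Mrpl38 and Mrps28 were lost without any one of 14 and 16 arrays (adjusted p = 0.0558 to 0.148 and 0.0508 to 0.123), and the Mrpl20 call against GMPs without any one of 12 (0.0505 to 0.127). Array weights and a fit of the compared groups alone also took the calls of Mrpl47 (0.0867 and 0.0694), Mrpl38 (0.0743 and 0.0823) and Mrps28 (0.0772 and 0.0922), and the fit of the compared groups alone took that of Mrpl20 against GMPs (0.0706). Centring arrays on their median and leaving out the filter on dim genes took those of Mrpl38 (0.0613 and 0.0598) and Mrps28 (0.0561 and 0.0524).

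Between the fresh WT populations the median of the family changed little. In WT GMPs against WT CMPs, 2 members were higher and 3 lower (7.04%, against 11% of all genes, 6.65% higher and 4.35% lower), with a median of 0.00. The arrays did not overlap for 15 higher and 13 lower of the 71 members, a larger share than the 35.2% of all genes. Mrpl52 read 7.64, 7.81 and 7.82 in WT GMPs, against 8.57, 8.28 and 8.48 in WT CMPs, and differed by -0.69 ± 0.11 (limma adjusted p = 0.000258). Mrpl4 read 8.95, 8.84 and 9.19 in WT GMPs, against 8.44, 8.29 and 8.42 in WT CMPs, and differed by 0.61 ± 0.11 (0.0012). Both were apart on every array. The others were Mrps27 (0.41), an RNA-binding protein of the small subunit, Mrpl46 (-0.36) and Mrpl32 (-0.71), whose maturation by a mitochondrial protease is a known step of ribosome assembly. Each of these 3 was lost without any one of WT CMP replicate 3, WT GMP replicate 1 or WT GMP replicate 3 (adjusted p = 0.0512 to 0.219), and also without WT CMP replicate 1 for Mrpl32 (0.204) and Mrpl46 (0.133), without WT CMP replicate 2 for Mrps27 (0.156), without WT GMP replicate 2 for Mrps27 (0.066) and Mrpl46 (0.0555), and without any one of 8 arrays of other groups for Mrpl46 (0.0504 to 0.0584). Centring arrays on their median and leaving out the filter on dim genes took the calls of Mrpl32 (0.063 and 0.0506) and Mrpl46 (0.135 and 0.0579), repeated quantile normalization that of Mrpl32 (0.0552), and the trended and robust eBayes that of Mrpl46 (0.0505). With array weights 17 members passed, where 24% of all genes did.

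Rptor GMPs differed from Rptor CMPs in more members, 2 higher and 15 lower (23.9%, against 27.9% of all genes, 12.5% higher and 15.4% lower), with a median of -0.11. Mrpl52 read 8.10, 8.12 and 8.28 in Rptor GMPs, against 9.28, 9.60 and 9.28 in Rptor CMPs (-1.22 ± 0.11, limma adjusted p = 3.56e-08). Mrpl46 read 7.18, 6.96 and 7.30 in Rptor GMPs, against 7.75, 7.88 and 7.84 in Rptor CMPs (-0.67 ± 0.11, 0.000126). Mrpl32 (-1.15) and Mrpl42 (-0.71) were also lower in Rptor GMPs, and Mrpl4 (0.61) and Mrpl3 (0.37) were higher. The count was 10 without Rptor GMP replicate 1 or 2 (21.3% and 19.9% of all genes) and 30 with array weights (42.8%). The Mrpl3 call was lost without either of these replicates, or without Rptor CMP replicate 1 or 3 (adjusted p = 0.0505 to 0.0967). With 0 members passing the interaction, the larger number of calls does not show that the genotypes differed in this.

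The cultured cells stood apart from the fresh ones, by a comparison in which population, culture with M-CSF and the wider spread of those arrays cannot be told apart. Of the 71 members 37 had their lowest group mean in the Rptor Lin- + M-CSF cells and 10 in the WT ones. The share of all tested genes with their lowest mean there was not counted, so these numbers do not mark the family. All tested genes together also read lower on the Lin- + M-CSF arrays, with array means of 6.37 to 6.42 against 6.47 to 6.51 on the fresh ones. In WT Lin- + M-CSF cells against WT CMPs 8 members were higher and 32 lower (56.3%, against 55.6% of all genes, 19.6% higher and 36% lower), with a median of -0.21 beside -0.14 over all genes. Against WT GMPs, which share the Lin- + M-CSF arrays, 10 were higher and 32 lower (59.2%, against 56.3%, 20.3% higher and 36.1% lower), with a median of -0.23 beside -0.14. Under cyclic loess the median over all genes moved by over 0.1, to 0.00 and -0.02, and that of the members to -0.05 and 0.04, so the direction of the median turned with the scaling against WT GMPs and stayed negative against WT CMPs under each of the 4 scalings. The median of the members lay within 0.1 of that of all genes in both comparisons.

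Single members moved much further than the family. Mrps21, a small-subunit counterpart of a bacterial protein, read 8.92, 8.76, 8.73 and 8.54 in WT Lin- + M-CSF cells, against 6.92, 6.67 and 6.72 in WT CMPs and 7.02, 6.94 and 6.85 in WT GMPs. It was higher by 1.97 ± 0.11 than in CMPs (limma adjusted p = 3.85e-12) and by 1.80 ± 0.11 than in GMPs (1.26e-11), with no overlap. The Rptor Lin- + M-CSF arrays read 8.39, 8.59, 8.28 and 8.62 for Mrps21. Mrpl52 was higher by 0.97 and 1.66 than in CMPs and GMPs and Mrpl18 by 0.65 and 0.72, and Mrpl12, of the ribosomal stalk, was higher than in CMPs by 0.65 and Mrpl32 higher than in GMPs by 0.71.

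Mrps27 was lower under M-CSF, at 5.86, 6.07, 5.82 and 5.76 in WT Lin- + M-CSF cells, against 7.58, 7.66 and 7.69 in WT GMPs and 7.41, 7.04 and 7.26 in WT CMPs. It differed by -1.77 ± 0.11 from GMPs (limma adjusted p = 1.44e-11) and by -1.36 ± 0.11 from CMPs (8.92e-10). Mrpl2, whose bacterial counterpart binds near the peptidyl transferase centre, read 8.30, 8.33, 7.90 and 8.02 in WT Lin- + M-CSF cells, against 9.72, 9.58 and 9.65 in WT CMPs, a difference of -1.52 ± 0.11 (5e-10). All 4 cultured arrays lay below all fresh ones for both genes. Mrpl2 also differed by -1.21 from GMPs, and Mrpl38 differed by -1.31 and -1.48 from CMPs and GMPs, Mrpl13 by -1.04 from CMPs and Mrpl3 by -1.15 from GMPs. Of the partner genes, 18 of 19 mitochondrial aminoacyl-tRNA synthetases and partners were lower in WT Lin- + M-CSF cells than in WT CMPs, with a median of -0.87. Among all tested genes 36% were called lower in this comparison, and their median was -0.142.

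**Figure D5:**
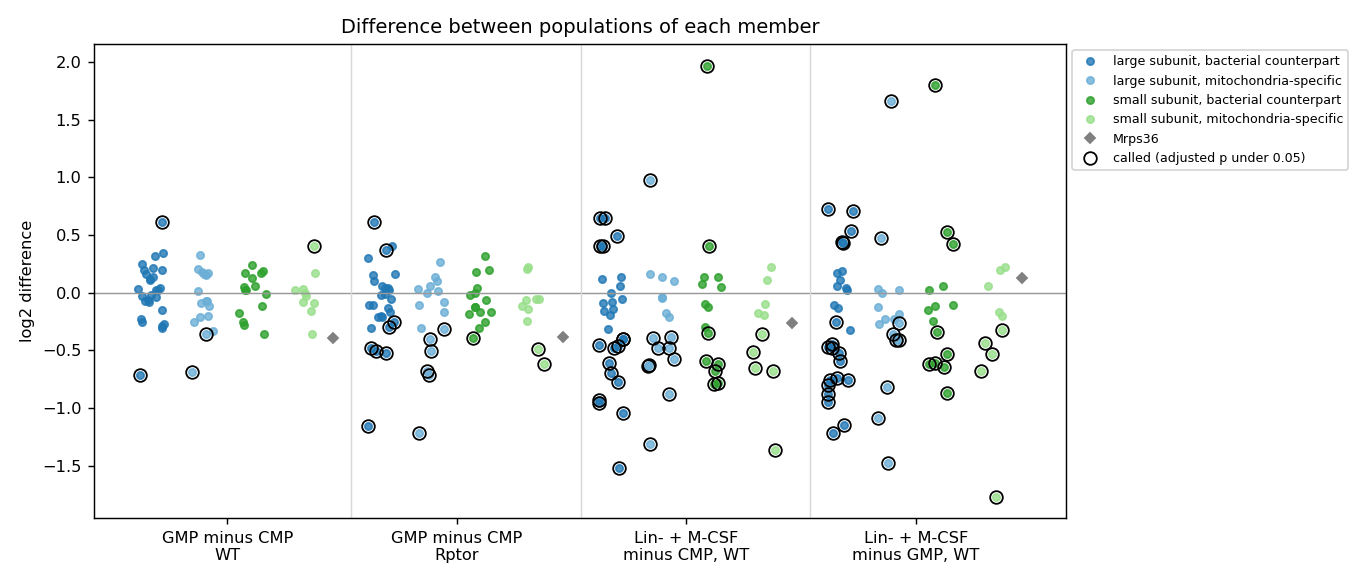
Difference of every member between populations in log2 units (points, 1 gene each, by subunit and class; black rings, limma adjusted p under 0.05), for GMPs minus CMPs in WT and in Rptor cells and for WT Lin- + M-CSF cells minus WT CMPs and minus WT GMPs. Mrps21 stands highest in both comparisons of the cultured cells (1.97 and 1.80), while the members' medians there lie at -0.21 and -0.23.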

How the data were processed

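Total RNA of 1 to 5 ng per sample was amplified to biotinylated cDNA for single-channel arrays, per the labels' protocols. The deposited values are log2 signals per probe set, as their range of 1.77 to 13.2 shows, with array medians of 4.76 to 4.91. RMA, Partek 6.6 and limma stand in the submitters' processing notes, without roles or order. RMA equalizes arrays by quantiles, which can take out part of a shift common to most transcripts. Whether such a shift was present here was not tested. The median over all tested genes was -0.142 in WT Lin- + M-CSF cells against WT CMPs and -0.135 against WT GMPs. It was -0.0793 and -0.106 under repeated quantile normalization, and -0.00474 and -0.0171 under cyclic loess. No scanner files were used, and detection above background could not be read from these values.

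The platform annotation gives a single gene symbol to 23521 of 41345 probe sets. Tested were the 16638 genes whose mean reached the 25th percentile (log2 3.86). Differences come from limma 3.58.1, run in R 4.3.3 (lmFit and eBayes, 1 mean per group, 14 residual degrees of freedom), in 11 comparisons with Benjamini-Hochberg adjustment over all tested genes in each. Rptor minus WT is positive where Rptor is higher. The fit was tested on simulated data.

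Named members are, per genotype comparison, the 6 called ones that changed most each way, those called alike in more than 1, and 4 in each direction per interaction or comparison of populations. For other lists, up to 4 called genes of smallest p were eligible. Members and lists were chosen with earlier results of these data known. The 17 lists, for the partners of the mitochondrial ribosome, respiratory chain, cytosolic ribosome, cell cycle and cell types, serve as comparison.

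Alternatives were other filters on dim genes, averaging the probe sets of a gene, fits of the compared groups alone, a block for the replicate number, weights per array, eBayes with trend and robust options, a repeat of the quantile normalization, centring on the median, cyclic loess, and each array left out. Same-numbered WT and Rptor arrays did not deviate together (correlations of -0.344 to 0.119), so numbers were not used as pairs. Same-numbered CMP and GMP arrays of a genotype had low positive correlations (0.00517 to 0.185), and the main fit did not pair these either. Promoter windows are RefSeq's on GRCm38.p6, matched by gene ID. The motif letters were chosen after the data were seen, and those of NRF1 and YY1 were shortened after a first search, which raised the number of matches. The files name no build, and no other coordinates are given. Figures were drawn with Python 3.11.15 and matplotlib 3.10.9.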

Additional observations from a re-analysis of the deposited data

Results flagged for a closer look

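For 5 members the genotype difference under M-CSF was lower than in CMPs by the interaction term of the limma fit, with Mrpl52 at -0.85, Mrpl20 at -0.83, Mrpl38 at -0.61, Mrps28 at -0.49 and Mrpl47 at -0.48 log2 units. For Mrpl20 it was also lower than in GMPs (-0.74). Mrpl52 rose in Rptor CMPs and did not pass under M-CSF, Mrpl20 fell under M-CSF and did not pass in CMPs, and the other 3 did not pass in either population on its own. Mrpl46 on WT Lin- + M-CSF replicate 3, an array with a residual spread of 0.236 log2 units, read 7.15. The other 3 arrays of its group lay above it and very close together (7.32 to 7.33). This reading was the only value flagged in 50 sets of 4 arrays examined, and chance flags about 1 in 20 groups.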

How the results depend on the processing

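Of the 63 values of named members 0 turned direction under an alternative, and 40 of the 60 calls of named members were made under every alternative run. The counts of members called that moved by over 1.5 times were as follows, and their cause was not tested. With array weights the genotype counts were 6 in CMPs (18.3% of all genes) and 20 in GMPs (32%). The interaction counts were then 5 for GMPs against CMPs (11.9%), 3 for Lin- + M-CSF cells against CMPs (9.39%) and 5 against GMPs (7.99%). The GMP minus CMP counts were 17 in WT (24%) and 30 in Rptor cells (42.8%). Fitted on the compared groups alone, the counts were 3 for the genotype under M-CSF (5.4% of all genes) and 11 for WT GMPs against WT CMPs (17.1%). For the interactions of Lin- + M-CSF cells with CMPs and GMPs they were 2 (6.17%) and 0 (3.67%). Without the filter on dim genes, 3 members were called in the interaction with CMPs (5.55%) and 3 in WT GMPs against WT CMPs (7.36%). With arrays centred on their median, the counts were also 3 (7.13%) and 3 (11%). The interaction of GMPs with CMPs had 1 call with the 50th percentile filter (4.26%) and 1 with the trended and robust eBayes (2.9%). The interaction of Lin- + M-CSF cells with GMPs had 2 calls under repeated quantile normalization (4.32%) and 2 under cyclic loess (4.42%). Its median was -0.0934 under cyclic loess. For WT Lin- + M-CSF cells the median against CMPs was -0.0537 under cyclic loess, and against GMPs it was 0.0355 under cyclic loess, -0.16 when a gene's probe sets were averaged and -0.16 under repeated quantile normalization.

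The replicate number as a block gave 3 calls for WT GMPs against WT CMPs in place of 5, where 10.6% of all genes passed in place of 11%. It took the call of Mrps18b in CMPs (adjusted p = 0.0545), and those of Mrpl32 (0.0603) and Mrpl46 (0.0708) between WT GMPs and WT CMPs. It moved no other count by over 1.5 times. Cyclic loess added a call of Mrpl58 under M-CSF (-0.22, adjusted p = 0.0437).

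With each array left out in turn, the genotype counts were 1 to 4 in CMPs, 2 to 7 in GMPs, 4 to 8 under M-CSF and 11 to 15 averaged, with medians of -0.01 to 0.08, -0.06 to -0.04, -0.12 to -0.05 and -0.05 to -0.01. The interactions had 0 to 1 (GMPs against CMPs), 2 to 6 (Lin- + M-CSF cells against CMPs) and 0 to 1 (against GMPs) calls, with medians of -0.13 to -0.04, -0.17 to -0.08 and -0.05 to 0.03. GMPs against CMPs gave 2 to 6 calls in WT and 10 to 19 in Rptor cells (medians -0.04 to 0.01 and -0.11 to -0.05), and WT Lin- + M-CSF cells gave 38 to 41 against CMPs and 36 to 43 against GMPs (medians -0.28 to -0.18 and -0.26 to -0.20). The share of all genes called moved too. It was 8.08% to 10.6% where the CMP genotype count was 1, and 7.11% and 7.55% where the GMP count was 2. Where Rptor GMPs against Rptor CMPs gave 10, it was 19.9% and 21.3%. The main fit had 11.4%, 11.9% and 27.9%. The number of arrays and the wider spread of the Lin- + M-CSF arrays limit what could be called.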
